A study of Mus musculus with 18 samples.

Results

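The 60 genes described here encode the classical axon guidance ligands and receptors of the mouse. They were taken by symbol as the protein-coding Eph receptors (14 genes), ephrins (8), semaphorins of classes 3 to 7 (20), plexins and neuropilins (11), Robo receptors (4) and Slits (3). They are 60 of 47729 genes, and of 20712 protein-coding genes, in the RNA count files. Of the 60, 31 encode ligands (semaphorins, ephrins and Slits) and 29 encode receptors.

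Guidance molecules steer growing axons and migrating neurons by attraction or repulsion. Ephrins sit on the cell surface and bind Eph receptor tyrosine kinases on the neighbouring cell, A-type ephrins through a lipid anchor and B-type ephrins through a transmembrane segment, so that both cells can receive a signal. Semaphorins signal through plexins, and most secreted class 3 semaphorins also need a neuropilin as the binding subunit. Slits are secreted ligands of Robo receptors. In the embryonic cortex these families take part in laying the callosal, corticothalamic and corticospinal tracts, in the migration of neurons from the progenitor zones to their layers, and in the growth of blood vessels.

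The material was cortex of mouse embryos at embryonic day E15.5. One group was BAF155 cKO treated with TSA (trichostatin A, which blocks histone deacetylases), and the other was BAF155 cKO treated with Vehicle. BAF155, encoded by Smarcc1, is a scaffold subunit of BAF, a SWI/SNF-type complex that remodels nucleosomes, and cKO means that the gene was deleted conditionally. Each treatment had 4 RNA libraries and 4 libraries of chromatin carrying histone H3 acetylated at lysine 9 (H3K9ac), a mark of active promoters and enhancers, and 2 input samples were not analysed here. The sources used here give no Cre driver, TSA dose or strain, and do not say whether replicates were separate embryos, so p-values measure the spread between these samples, which may be technical. Both groups carried the knockout, and no sample with intact BAF155 was compared.

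RNA libraries held 6733415, 18080205, 20400727 and 16347934 counts in TSA 1 to 4 and 14216775, 15600340, 14357279 and 12200426 counts in Vehicle 1 to 4. Smarcc1 itself lay between 118 and 148 CPM (each library's counts rescaled to the same total) in the 8 libraries, which checks no label because none came from an embryo with an intact gene. Cortical layer markers were present in every library, for example Tbr1 at 453 to 488 CPM in TSA and 200.1 to 296 CPM in Vehicle. By the test described in the next paragraph, 15.4% of all tested genes rose in TSA and 17.6% fell. Of the upper-layer markers 9 of 9 rose, with summed levels of 1655 to 2262 CPM in TSA and 1010 to 1302 CPM in Vehicle. Of the deep-layer markers 7 of 11 rose and 3 fell. Of the basal progenitor markers 5 of 10 rose and none fell, with summed levels of 1119 to 1256 CPM in TSA and 579 to 794 CPM in Vehicle. Of the apical progenitor markers 8 of 13 rose and 2 fell (summed 2353 to 2508 CPM in TSA and 2230 to 2669 CPM in Vehicle). Striatal markers had 1 rise and 7 falls among 12 (585 to 721 CPM in TSA and 543 to 986 CPM in Vehicle), and microglial markers 5 falls among 12 (38.1 to 54.7 CPM in TSA and 52.6 to 73.1 CPM in Vehicle). The lists for Cajal-Retzius cells, endothelium, pericytes and meninges, erythroid cells, choroid plexus, and thalamus had at most 3 called genes each. Summed levels still separated the groups for Cajal-Retzius cells (905 to 1050 CPM in TSA and 793 to 848 CPM in Vehicle). They did so the other way for pericytes and meninges (129 to 177 and 179 to 249 CPM) and erythroid cells (143 to 180 and 198.7 to 472 CPM). The sums for endothelium, choroid plexus and thalamus overlapped. Markers of inhibitory neurons and the ganglionic eminence moved too: 3 of 16 rose and 13 fell, and their summed level was 711 to 1051 CPM in TSA and 1545 to 1844 CPM in Vehicle. The 3 that rose, Nkx2-1, Lhx8 and Lhx6, mark the medial eminence, and Nkx2-1 was highest in TSA 3, at 31.3 CPM against 9.26 to 15.1 CPM in the other TSA libraries and 1.55 to 5.44 CPM in Vehicle. Mitochondrial genes took 1.48% to 1.71% of counts in TSA and 1.60% to 3.36% in Vehicle, with Vehicle 1 (2.86%) and Vehicle 4 (3.36%) above the others. Xist was high in 1 of 4 TSA libraries (TSA 4) and in 4 of 4 Vehicle libraries, so embryo sex and treatment are largely confounded. In bulk tissue, fewer cells of a type and less RNA per cell cannot be told apart either, and the part of cell composition in the results below was not tested.

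Of the 60 genes, 58 had enough counts to be tested, and 12 of them rose and 3 fell in TSA. The test was edgeR's quasi-likelihood test with Benjamini-Hochberg adjustment over 15000 tested genes, and an adjusted p under 0.05 was called. The called share was 25.9% of the guidance genes, against a background of 33.0% of all tested genes. The directions were uneven: 20.7% of the guidance genes rose, against 15.4% of all tested genes, and 5.17% fell, against 17.6%. The median log2 fold change was 0.18 over the guidance genes and −0.01 over all tested genes. In 11 of the 58 genes all TSA libraries lay above all Vehicle libraries, and in 3 of the 58 they lay below. Over all tested genes, 32.3% were separated in either direction (14.9% above and 17.4% below). By role, 5 of 31 ligands and 7 of 27 tested receptors were higher in TSA, and 2 ligands and 1 receptor were lower. Epha1 and Plxnb3 were too low to test, at 2 to 8 and 6 to 19 counts in TSA and 2 to 7 and 5 to 12 counts in Vehicle.

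Without Vehicle 1 and Vehicle 4, 14 guidance genes rose and 3 fell, and without TSA 3, 13 rose and 3 fell. The number that fell was 1 without TSA 1 and 1 without Vehicle 3. A fit with Xist status as a covariate sets TSA 4 alone against the Vehicle libraries, and there 4 guidance genes rose (Sema5a, Plxna1, Plxna4 and Efnb1) and 1 fell (Sema3e), where 757 of all 15000 genes rose and 818 fell. No called gene changed sign in any of the 17 alternatives run.

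**Figure D1:**
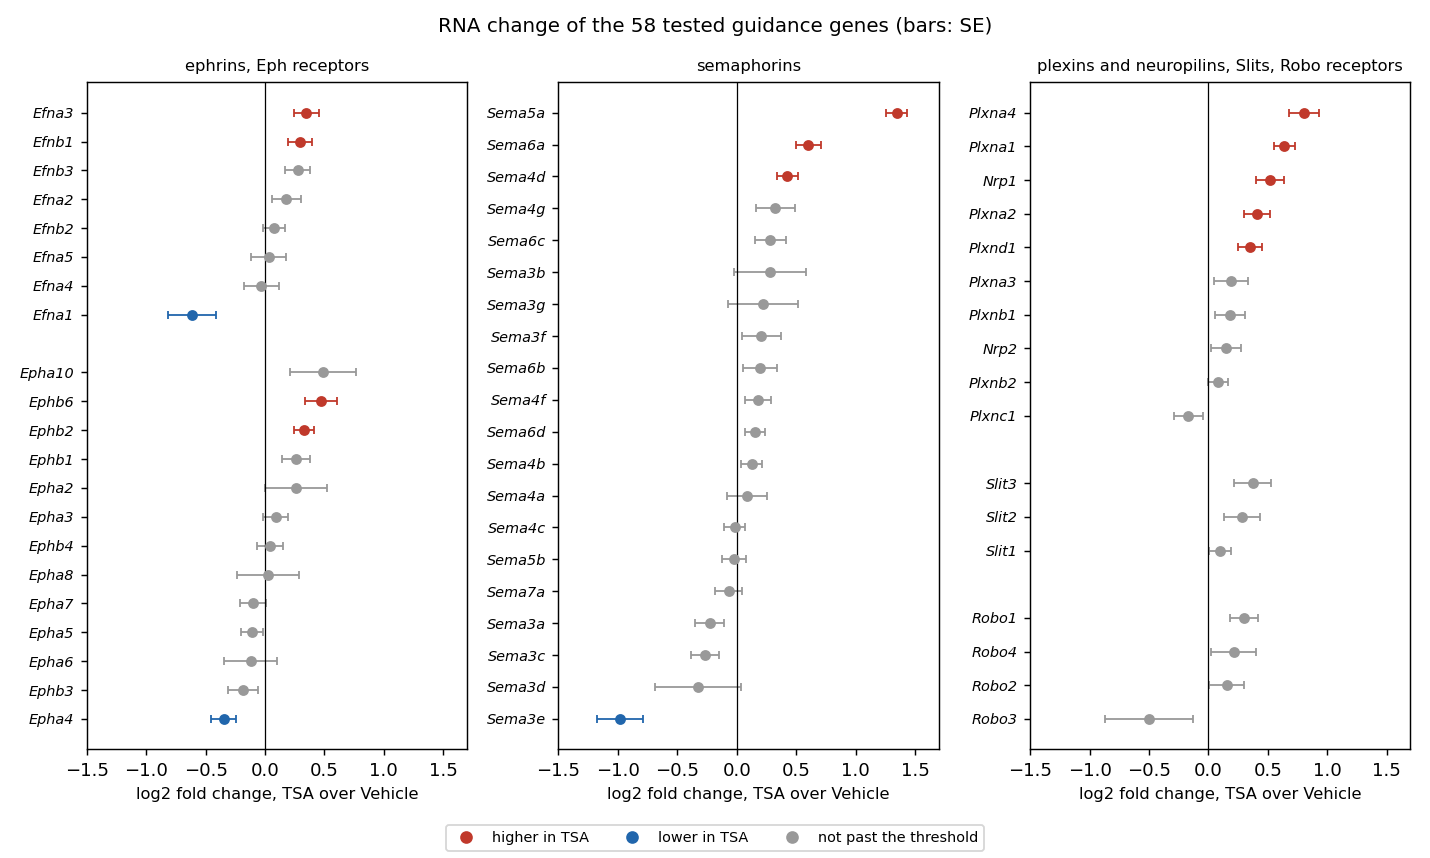
Log2 fold change of RNA (TSA over Vehicle, x axis) of the 58 tested guidance genes by family, points with standard errors from 4 libraries in each group. Red points passed the threshold upwards (12 genes) and blue points downwards (3 genes). Sema5a stands farthest to the right at 1.35 and Sema3e farthest to the left at −0.99, and the plexin and neuropilin panel holds 5 red points and no blue one.

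Among the semaphorins, Sema5a rose 2.54-fold in TSA, the largest change of the 58 genes, while Sema3e fell 1.98-fold. Sema6a and Sema4d also rose, and the other 16 did not pass the test. Thus 15% of the semaphorins rose, near the 15.4% of all tested genes, and 5% fell, against 17.6%. Sema5a encodes a transmembrane semaphorin with thrombospondin repeats that acts on neurites through plexin-A receptors. It had 123, 129, 124 and 121 CPM in TSA 1 to 4, against 43.2, 55.3, 49.2 and 47.8 CPM in Vehicle 1 to 4. The groups were far apart, and the TSA libraries lay closer to each other than the Vehicle libraries did (log2 fold change 1.35 ± 0.09 SE, edgeR adjusted p = 6.38e-07). Sema6a, a transmembrane ligand of plexins A2 and A4, had 76.8, 74.6, 93.4 and 67.9 CPM in TSA, against 48.7, 53.1, 55.9 and 48.4 CPM in Vehicle (0.60 ± 0.10, edgeR adjusted p = 0.000632). Sema4d, the ligand of plexin-B1, had 71.5, 72.4, 69.2 and 67.8 CPM in TSA, against 55.2, 58.7, 47.7 and 47.0 CPM in Vehicle (0.43 ± 0.09, edgeR adjusted p = 0.00279). In both genes every TSA library was above every Vehicle library. Sema3e, the secreted ligand of plexin-D1, went the other way, with 3.96, 3.84, 4.99 and 3.63 CPM in TSA, against 6.05, 8.32, 9.99 and 8.39 CPM in Vehicle (−0.99 ± 0.19, edgeR adjusted p = 0.00149). Its lowest Vehicle library was still above its highest TSA library. In the fit with the Xist covariate the calls of Sema6a and Sema4d ended while their log2 fold changes were 0.40 and 0.38 (edgeR adjusted p = 0.118 and 0.124), whereas Sema5a and Sema3e passed in each of the 17 alternatives.

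The starts of the semaphorins with the largest rise and the largest fall are shown because their promoters differ in base composition, and because both carried H3K9ac, as described further on. Each window runs from 250 bases before to 50 bases after the start (RefSeq, GRCm38.p6, the assembly of mm10; gene strand, 5′ to 3′), with each CpG in capitals. The Sema5a window, chr15:32244563-32244862 on the plus strand, held 23 CpG and 71.3% G and C, and the Sema3e window, chr5:14025026-14025325 on the plus strand, held 11 CpG and 50.7%.
Sema5a: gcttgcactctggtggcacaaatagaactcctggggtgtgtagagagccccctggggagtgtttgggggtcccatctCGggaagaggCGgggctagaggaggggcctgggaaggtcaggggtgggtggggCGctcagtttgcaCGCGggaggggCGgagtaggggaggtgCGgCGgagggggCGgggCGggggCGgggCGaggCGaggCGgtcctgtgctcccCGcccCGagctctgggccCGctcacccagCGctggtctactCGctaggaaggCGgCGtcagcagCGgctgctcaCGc
Sema3e: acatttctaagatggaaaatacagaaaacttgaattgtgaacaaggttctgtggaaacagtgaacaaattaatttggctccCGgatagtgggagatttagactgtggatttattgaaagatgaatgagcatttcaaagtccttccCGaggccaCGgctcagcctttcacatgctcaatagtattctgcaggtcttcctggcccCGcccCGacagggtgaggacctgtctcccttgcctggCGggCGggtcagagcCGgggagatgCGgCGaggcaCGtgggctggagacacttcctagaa

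The 7 class 3 semaphorins, the secreted ones, had a median log2 fold change of −0.23, and none rose. Sema3c, which signals through neuropilins and plexin-D1, had 83.5, 88.2, 67.1 and 66.8 CPM in TSA, against 81.0, 107, 84.8 and 93.8 CPM in Vehicle (−0.27 ± 0.12, edgeR adjusted p = 0.0936), and the groups overlapped. Sema3a, the classical repellent acting through neuropilin-1 and plexin-A, had 40.8, 48.3, 44.4 and 39.2 CPM in TSA, against 39.5, 50.3, 60.9 and 52.2 CPM in Vehicle (−0.23 ± 0.12, edgeR adjusted p = 0.173). Both are genes of over 100 kb, and when each library's trend of expression over genomic span was removed, both fell (−0.40 and −0.44, limma adjusted p = 0.0139 and 0.00814). Sema3a also fell without Vehicle 1 (−0.33, edgeR adjusted p = 0.0303). The neuropilin-2 ligand Sema3f had 43.0, 40.3, 31.1 and 44.0 CPM in TSA and 37.7, 22.6, 41.3 and 35.1 CPM in Vehicle, and the difference did not pass the test. Sema3b, Sema3d and Sema3g reached at most 2.74, 3.31 and 4.15 CPM in any library, with changes between −0.32 and 0.28 and standard errors of 0.29 to 0.36.

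Classes 4 to 7 held the 3 rises and no fall among 13 genes. Of the 6 class 4 genes only Sema4d passed, and of the 4 class 6 genes only Sema6a. Sema4g had 286, 283, 215 and 271 CPM in TSA, against 288, 153, 181 and 219 CPM in Vehicle, and Sema6c had 142, 146, 122 and 152 CPM in TSA, against 142, 87.7, 108 and 124 CPM in Vehicle. In both, Vehicle 1 was the highest Vehicle library, and without it both passed the test (log2 fold change 0.52 and 0.40, edgeR adjusted p = 0.00933 and 0.0215). Sema5b, the close relative of Sema5a, had 69.8, 62.5, 65.0 and 74.5 CPM in TSA, against 75.4, 59.9, 63.3 and 77.4 CPM in Vehicle, with overlapping groups (−0.02 ± 0.10, edgeR adjusted p = 0.892). Sema4b, with 45.7, 40.5, 42.0 and 42.9 CPM in TSA and 40.8, 37.5, 38.5 and 39.8 CPM in Vehicle, did not pass either. Sema7a, a lipid-anchored ligand of plexin-C1 and integrins, was at 87.0, 85.4, 59.2 and 83.0 CPM in TSA and 82.5, 74.3, 86.0 and 86.0 CPM in Vehicle, TSA 3 being the lowest of the 8.

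Of 10 tested plexins and neuropilins, 5 rose and none fell: Plxna1, Plxna4, Nrp1, Plxna2 and Plxnd1, with a family median log2 fold change of 0.27. Over all tested genes 15.4% rose and 17.6% fell. Plxna1 encodes a co-receptor of class 3 semaphorins and had 342, 288, 342 and 324 CPM in TSA, against 209.9, 205, 216 and 201 CPM in Vehicle (0.64 ± 0.09, edgeR adjusted p = 0.000123). Plxna4, a receptor for class 3 and class 6 semaphorins in axon repulsion, had 502, 562, 409 and 447 CPM in TSA, against 269, 334, 269.9 and 227 CPM in Vehicle (0.80 ± 0.13, edgeR adjusted p = 0.000355). For both genes the lowest TSA library exceeded the highest Vehicle library, and both passed in each of the 17 alternatives. Nrp1, the neuropilin that binds Sema3a, had 299, 302, 229 and 265 CPM in TSA, against 201, 227, 171 and 164 CPM in Vehicle (0.52 ± 0.12, edgeR adjusted p = 0.00428). Plxna2, a receptor of Sema6a, had 1117, 1129, 953 and 1057 CPM in TSA, against 807, 919, 746 and 732 CPM in Vehicle (0.41 ± 0.11, edgeR adjusted p = 0.00954). In Nrp1 and Plxna2, TSA 3 was the lowest TSA library, and it still lay above the highest Vehicle library. Plxnd1, the receptor of Sema3e, had 118, 112, 116 and 112 CPM in TSA, against 83.1, 82.2, 110.3 and 83.0 CPM in Vehicle (0.35 ± 0.10, edgeR adjusted p = 0.0158), Vehicle 3 standing close to the TSA level. Without Vehicle 1 and Vehicle 4 its call ended (0.25, edgeR adjusted p = 0.0970).

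The X-linked Plxna3 was the plexin-A gene that did not pass, with 507, 472, 399.6 and 487 CPM in TSA, against 546, 332, 351 and 409 CPM in Vehicle (0.19 ± 0.14, edgeR adjusted p = 0.342). Vehicle 1 was its highest library of the 8, and without Vehicle 1 the change was 0.36 (edgeR adjusted p = 0.0268). Nrp2, Plxnb1, Plxnb2 and Plxnc1 had changes between −0.17 and 0.18 with overlapping groups, and of these Plxnc1 fell when TSA 3 was left out (−0.32, edgeR adjusted p = 0.0265). The Xist covariate ended the calls of Nrp1, Plxna2 and Plxnd1, whose log2 fold changes in that fit were 0.47, 0.40 and 0.32 (edgeR adjusted p = 0.135, 0.162 and 0.243). Nrp1 and Plxnd1 are also used by blood vessels. Of 13 endothelial markers none rose and 2 fell, with a summed level of 186 to 222 CPM in TSA and 181 to 284 CPM in Vehicle. The part of vessel content in the Nrp1 and Plxnd1 changes was not tested.

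Among ephrins, Efna3 and Efnb1 rose, Efna1 fell, and the other 5 did not pass. These were 25% risen and 12.5% fallen, where 15.4% and 17.6% of all tested genes rose and fell. Efna3 encodes a lipid-anchored ligand of EphA receptors and had 33.2, 28.4, 28.1 and 26.3 CPM in TSA, against 23.5, 22.4, 22.2 and 22.5 CPM in Vehicle (0.35 ± 0.10, edgeR adjusted p = 0.0177). Efnb1, an X-linked transmembrane ligand of EphB receptors, had 130.2, 114, 112 and 145 CPM in TSA, against 91.6, 102, 112 and 103 CPM in Vehicle (0.29 ± 0.10, edgeR adjusted p = 0.0387). Its groups overlapped at 112 CPM, in TSA 3 and Vehicle 3. Efna1 had 2.29, 3.67, 3.60 and 3.06 CPM in TSA, against 4.13, 4.90, 5.17 and 5.70 CPM in Vehicle (−0.62 ± 0.20, edgeR adjusted p = 0.0311), each TSA library being below each Vehicle library. The call of Efna3 ended without TSA 1 (edgeR adjusted p = 0.0614), that of Efnb1 without TSA 1, TSA 4, Vehicle 1 or Vehicle 4 (0.0973, 0.147, 0.0923 and 0.0687), and that of Efna1 without TSA 1, TSA 4, Vehicle 3 or Vehicle 4 (0.0778, 0.0784, 0.0639 and 0.0896). Efnb3, a midline ligand of the corticospinal tract, showed 196, 173, 241 and 175 CPM in TSA and 168, 151, 168 and 161 CPM in Vehicle; its groups did not overlap, yet it missed the threshold (0.28 ± 0.11, edgeR adjusted p = 0.0600). Efna2 (0.18) and Efnb2 (0.07) did not pass, Efnb2 having 391, 421, 354 and 414 CPM in TSA and 365, 398, 394 and 343 CPM in Vehicle.

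Of 13 tested Eph receptors, Ephb2 and Ephb6 rose and Epha4 fell, and the family median was 0.04. The share that rose was 15.4%, as over all tested genes, and 7.69% fell, against 17.6% of all. Ephb2, a receptor of B-type ephrins in commissural axons, had 297, 265, 286 and 285 CPM in TSA, against 212, 246, 233 and 211 CPM in Vehicle (0.33 ± 0.09, edgeR adjusted p = 0.00944). Ephb6, a member without kinase activity, had 66.2, 61.7, 46.4 and 68.4 CPM in TSA, against 50.8, 34.6, 42.4 and 46.9 CPM in Vehicle (0.47 ± 0.14, edgeR adjusted p = 0.0161). The Ephb2 groups were apart, whereas TSA 3 brought the Ephb6 groups into overlap. Epha4 binds ephrins of both types and directs corticospinal axons; it had 364, 375, 349 and 378 CPM in TSA, against 393, 562, 476 and 435 CPM in Vehicle (−0.35 ± 0.11, edgeR adjusted p = 0.0231). All 4 TSA libraries lay below the lowest Vehicle library. The Epha4 call ended without TSA 1, TSA 2, TSA 3 or Vehicle 3 (edgeR adjusted p = 0.0737, 0.0609, 0.0635 and 0.0522), and that of Ephb6 without TSA 1 or TSA 4 (0.0518 and 0.0573). The Xist covariate ended the calls of these 3 receptors and of Efna3 and Efna1 (edgeR adjusted p from 0.0592 to 0.437), with log2 fold changes of 0.34 for Ephb2, 0.65 for Ephb6, −0.30 for Epha4, 0.22 for Efna3 and −0.70 for Efna1. Ephb1 had 161, 164, 143 and 132 CPM in TSA, against 106, 144, 141 and 108 CPM in Vehicle, and Epha10 had 2.29, 2.03, 2.67 and 2.31 CPM in TSA, against 1.79, 0.967, 1.79 and 2.14 CPM in Vehicle; neither passed (0.26 ± 0.12 and 0.49 ± 0.28, edgeR adjusted p = 0.0995 and 0.196). Without Vehicle 2, Ephb1 passed (0.34, edgeR adjusted p = 0.0265). The remaining Eph receptors had changes between −0.18 and 0.26.

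**Figure D2:**
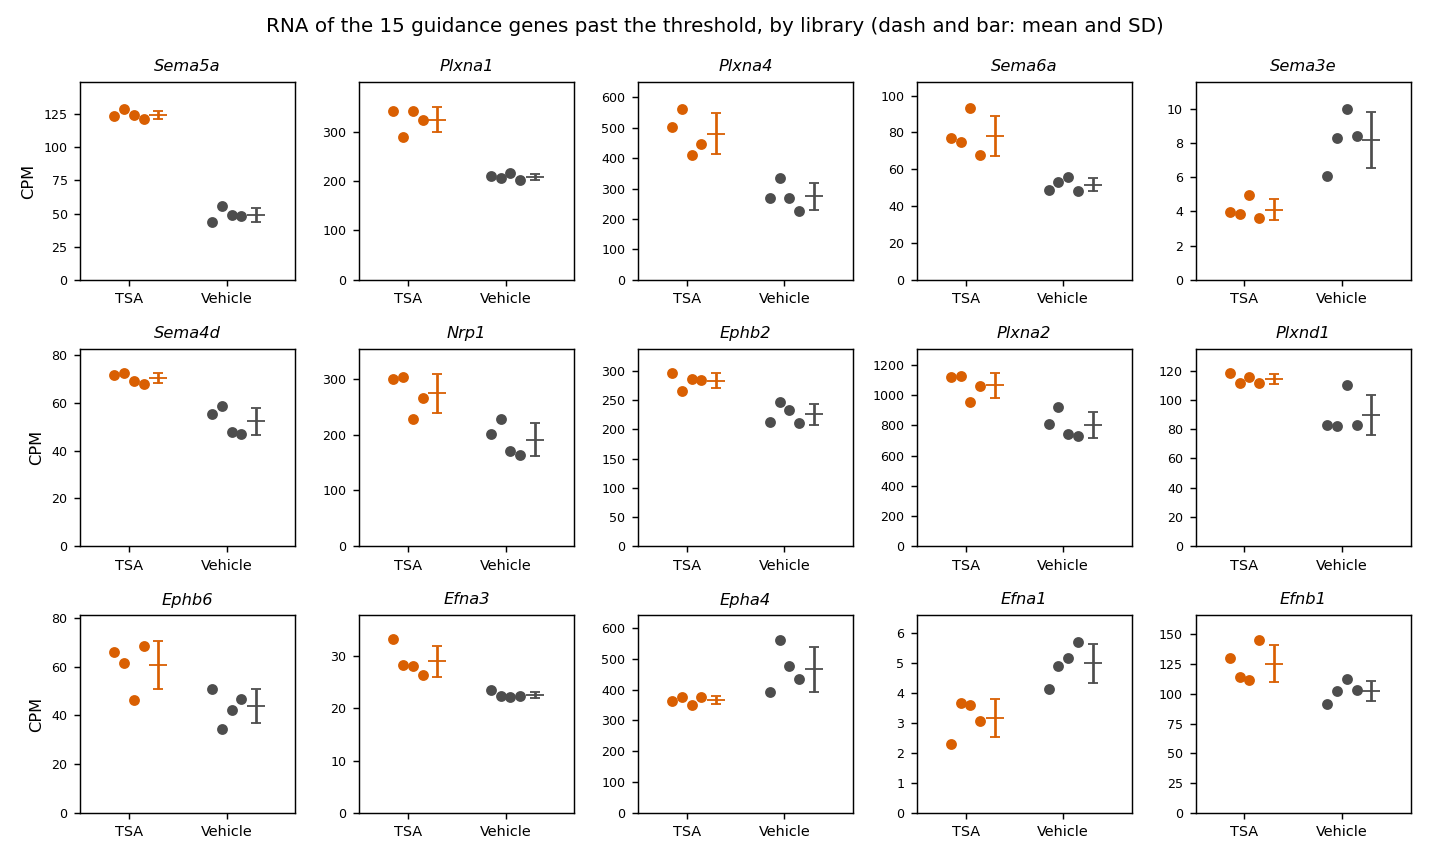
RNA level in CPM (y axes from 0) of the 15 guidance genes past the threshold, 1 point per library, with the mean and SD of 4 TSA libraries (orange) and 4 Vehicle libraries (grey). TSA lies above Vehicle in 12 panels and below it in those of Sema3e, Epha4 and Efna1, and the points of the groups overlap for Ephb6 and Efnb1 only.

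Neither Slits nor Robo receptors passed the test, 3 and 4 genes with median log2 fold changes of 0.28 and 0.18. Of all tested genes 33.0% passed. Slit3 had 22.3, 18.9, 19.9 and 13.9 CPM in TSA, against 15.47, 16.6, 13.2 and 12.1 CPM in Vehicle (0.37 ± 0.15, edgeR adjusted p = 0.0784). Slit2 had 61.0, 59.9, 88.5 and 58.8 CPM in TSA, against 57.5, 68.8, 45.8 and 49.1 CPM in Vehicle (0.28 ± 0.15, edgeR adjusted p = 0.173). Slit1 had 111, 106, 119.8 and 128 CPM in TSA, against 121, 95.6, 109.9 and 109 CPM in Vehicle (0.09 ± 0.09, edgeR adjusted p = 0.486). The TSA and Vehicle libraries overlapped in each of the 3 ligands, and in Slit2 it was TSA 3 that stood highest. Leaving out Vehicle 2 let Slit3 and Slit2 pass (0.45 and 0.41, edgeR adjusted p = 0.0358 and 0.0420), and so did leaving out TSA 4 for Slit3 (0.49, edgeR adjusted p = 0.0224). Robo1, the main Slit receptor of cortical axons with Robo2, had 391.7, 407, 320.0 and 395 CPM in TSA, against 264, 329, 364 and 271 CPM in Vehicle (0.30 ± 0.12, edgeR adjusted p = 0.0622). Robo2 had 334, 377, 285 and 330.5 CPM in TSA, against 214, 299, 388 and 289.9 CPM in Vehicle (0.16 ± 0.15, edgeR adjusted p = 0.465). Vehicle 3 was the highest Vehicle library of both receptors, and without it the change of Robo1 passed (0.39, edgeR adjusted p = 0.0239). Without TSA 3 or Vehicle 2 it also passed (edgeR adjusted p = 0.0314 and 0.0379).

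Robo3, which in mammals acts at the midline without high-affinity Slit binding, varied widely within Vehicle. It had 5.64, 7.51, 8.44 and 11.6 CPM in TSA, against 20.8, 6.38, 6.61 and 14.2 CPM in Vehicle (−0.50 ± 0.37, edgeR adjusted p = 0.338). Vehicle 1 and Vehicle 4, the Vehicle libraries richest in mitochondrial reads, were the high ones, and without the pair the change had the opposite sign (0.38, edgeR adjusted p = 0.259). Robo4, the endothelial member, had 7.32, 5.65, 5.68 and 7.00 CPM in TSA, against 4.81, 6.77, 6.06 and 4.20 CPM in Vehicle (0.21 ± 0.19, edgeR adjusted p = 0.440), beside the endothelial markers given above. Robo3 and Robo4 lie next to each other on chromosome 9, and their promoters are shown because H3K9ac was missing at the Robo3 start in some libraries and at the Robo4 start in all. Robo2 has 3 listed starts, of which one had a peak in all 8 libraries, one in 4 TSA and 2 Vehicle libraries and one in 1 TSA and 1 Vehicle library. The Robo3 window, chr9:37433126-37433425 on the minus strand, held 17 CpG, and the Robo4 window, chr9:37401722-37402021 on the plus strand, held 2 (250 bases before to 50 after the start, GRCm38.p6, CpG in capitals).
Robo3: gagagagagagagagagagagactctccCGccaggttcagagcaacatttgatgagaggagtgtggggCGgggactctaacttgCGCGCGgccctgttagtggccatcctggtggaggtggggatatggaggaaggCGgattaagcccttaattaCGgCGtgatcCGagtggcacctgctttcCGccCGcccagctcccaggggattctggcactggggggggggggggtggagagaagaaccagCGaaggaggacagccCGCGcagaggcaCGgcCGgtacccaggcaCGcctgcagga
Robo4: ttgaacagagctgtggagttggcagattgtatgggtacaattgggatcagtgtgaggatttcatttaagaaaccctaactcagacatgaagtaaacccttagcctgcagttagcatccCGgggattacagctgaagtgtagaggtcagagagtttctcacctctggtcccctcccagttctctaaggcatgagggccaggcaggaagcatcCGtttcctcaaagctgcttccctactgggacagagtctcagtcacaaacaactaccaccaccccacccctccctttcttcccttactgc

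The RNA change followed genomic span over the whole table, and guidance genes are long. Their median span was 40.2 kb, against 26.0 kb for the 13131 tested protein-coding genes. Of protein-coding genes under 10 kb, 6.57% rose and 27.1% fell, and of those over 300 kb 34.2% rose and 6.45% fell. The 15 tested guidance genes of 100 to 300 kb had 5 rises and 2 falls, with a median of 0.03, against 31.5% rises and a median of 0.17 for all genes of that span. The 12 of over 300 kb had 2 rises (Sema5a and Plxna4) and no fall, against a share of 34.2% rises. The 22 of 10 to 30 kb had 2 rises (Ephb6 and Efnb1) and no fall, against 12.3% rises and 22.2% falls. The 5 of 30 to 100 kb had 2 rises and no fall, with a median of 0.35, against 21.5% rises and a median of 0.06, and the 4 under 10 kb had 1 rise and 1 fall. With each library's trend over span removed, 13 guidance genes rose and 7 fell; the calls of Ephb2 and Plxna2 ended (limma adjusted p = 0.0897 and 0.0567), Efnb3 (0.38), Sema4g (0.42) and Sema6c (0.37) rose (limma adjusted p = 0.0115, 0.0445 and 0.0264), and Sema3a and Sema3c, as given above, Epha5 (−0.31) and Plxnc1 (−0.32) fell (limma adjusted p = 0.00924 and 0.0393 for the last pair).

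**Figure D3:**
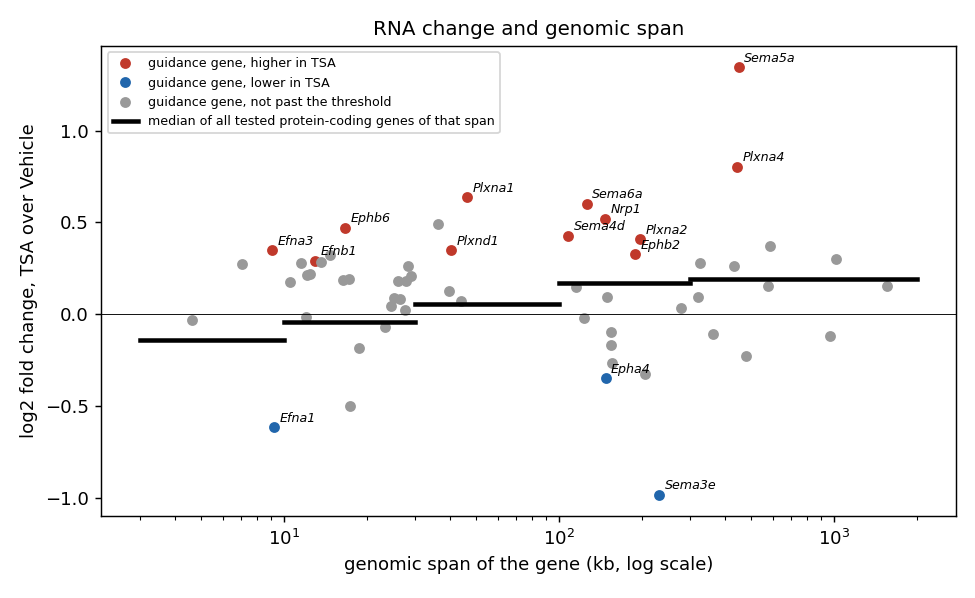
Log2 fold change of RNA (TSA over Vehicle, y axis) of the 58 tested guidance genes against genomic span in kb (x axis, log scale); black lines give the median of all tested protein-coding genes in each span range. The line climbs to 0.19 above 300 kb, and Sema5a and Plxna4 lie above it while Epha4 and Sema3e lie below the line of 100 to 300 kb.

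The wider guidance pathways were read from lists chosen with earlier results of these data known. Over all tested genes, 15.4% rose and 17.6% fell. Of 17 tested genes of the netrin and UNC5 pathways and their partners, 9 rose (52.9%) and 2 fell (11.8%), with a median log2 fold change of 0.34. The receptor gene Unc5d had 143, 130.2, 119.8 and 120.3 CPM in TSA, against 52.0, 69.3, 52.8 and 53.1 CPM in Vehicle (1.17 ± 0.11, edgeR adjusted p = 9.88e-06). Dscam (0.77), Unc5a (0.96) and Rgma (0.67), which encode 2 netrin receptors and a ligand of neogenin, rose with non-overlapping groups. Flrt2, a ligand of Unc5d, and Rgmb fell (−0.44 and −0.30). The principal netrin receptor gene Dcc, with 172, 176, 184 and 192 CPM in TSA and 152, 224, 141 and 136 CPM in Vehicle, did not pass (0.15 ± 0.14, edgeR adjusted p = 0.458). Among 14 co-receptors of semaphorins and Slits, 3 rose (21.4%) and 2 fell (14.3%), near the shares over all tested genes. Cntn2, L1cam and Nrcam rose (0.93, 0.50 and 0.29), and Itgb1 and Adam10 fell (−0.37 and −0.29). These 3 risen genes encode adhesion molecules of the immunoglobulin superfamily on axons.

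Of 45 tested intracellular effectors of guidance receptors, 19 rose and 3 fell, with a median of 0.26, where 15.4% of all tested genes rose and 17.6% fell. Srgap1 and Srgap3, which encode GTPase-activating proteins that bind Robo receptors, rose by 0.77 and 0.65, Mical3, of the family of redox enzymes bound to plexin-A, by 0.55, and Dpysl5, of the collapsin response mediators, by 0.79. Srgap1 averaged 225 ± 11.3 CPM in TSA and 131 ± 9.12 CPM in Vehicle (SD, n = 4 each). The 3 that fell were Nck1, an adaptor (−0.78), Cdc42, a small GTPase (−0.41), and Cdk5, a kinase of neuronal migration (−0.32). Beside these changes, markers of cortical neurons, progenitors, striatum, microglia, the ganglionic eminence and other cell types moved as given above, and their part in them was not tested.

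H3K9ac peaks had been called in each library separately, giving lists of 46714, 53285, 32248 and 61217 peaks in TSA 1 to 4 and 41987, 41331, 43645 and 22668 in Vehicle 1 to 4. Vehicle 4 had the shortest list although its 24075842 tags were the most of any library. RefSeq's promoter table gave a start for 53 of the 60 genes; for Plxna1, Plxna4, Sema3f, Efnb3, Sema3b, Slit1 and Sema6a no start window was examined. A peak within 1 kb of a listed start was found in all 8 libraries for 36 of the 53 genes (67.9%), against 44.7% of 17492 genes, and in no library for 5 (9.43%), against 34.2%. The sets are unlike: 58 of the 60 guidance genes had enough RNA to test, but the 17492 include genes that did not. Only 13131 protein-coding genes were tested, and no set matched by RNA level was compared. Guidance gene starts with a peak numbered 46, 43, 40 and 48 in TSA 1 to 4 and 44, 45, 47 and 40 in Vehicle 1 to 4, and these ranges overlap. Sema5a, the gene with the largest RNA change, had a region in all 8 libraries 56 bp from its start, at chr15:32244869-32246699, and regions in all 8 libraries also lay near the upper ends of Plxna1 (chr6:89359902-89362310) and Plxna4 (chr6:32586066-32588114). The 5 without a start peak were Epha1, Plxnb3, Robo4, Sema3a and Sema4d. For the last pair this concerns the listed starts only: regions in all 8 libraries lay 2341 bp from the Sema3a start (chr5:13399125-13400631) and over the upper end of the Sema4d gene (chr13:51791763-51794051), 35080 bp from the nearest listed start.

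The other 12 genes had a start peak in some libraries. Plxnd1 differed most between groups, with 3 TSA libraries and no Vehicle library, and it was the single guidance gene whose start window was occupied in at least 3 more TSA libraries (1 of 53, where 0.703% of all start windows met this rule and 0.04% met the opposite one). The region that met the rule lay 341 bp from the start, at chr6:115993982-115994664, in TSA 1, TSA 2 and TSA 4. The region over the start itself, chr6:115995000-115995542, was in TSA 1 and TSA 4 only and did not meet it. A further region, chr6:115995925-115996070, was in TSA 4 alone. At a q limit of 0.01 the TSA 2 peak was lost, which left 2 TSA libraries and no Vehicle library. Neither the region 341 bp from the start nor the start window then met the rule. Fisher's exact test for 3 against 0 of 4 libraries gives a two-sided p of 0.143, the same for every such region. Sema3e had a start peak in 4 TSA and 3 Vehicle libraries, the missing one being Vehicle 4, and Ephb4, Sema3d and Sema6b had the same pattern. Ephb3 and Sema3c lacked the peak in TSA 3 alone. Robo3 and Sema3g had it in 1 TSA and 3 Vehicle libraries, Epha2 in 2 and 3, Epha8 in 2 and 2, and Slit3 in 2 and 1. The Plxnd1 promoter, at chr6:115994956-115995255 on the minus strand, held 23 CpG in the same 300-base window as above, and its RNA was higher in TSA, as given above.
Plxnd1: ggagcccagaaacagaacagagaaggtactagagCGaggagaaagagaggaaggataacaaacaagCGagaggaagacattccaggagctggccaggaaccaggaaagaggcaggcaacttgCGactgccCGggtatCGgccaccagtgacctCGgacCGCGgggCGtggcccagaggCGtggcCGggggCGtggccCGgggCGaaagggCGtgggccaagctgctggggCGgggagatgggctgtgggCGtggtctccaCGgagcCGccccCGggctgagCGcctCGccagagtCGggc

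**Figure D4:**
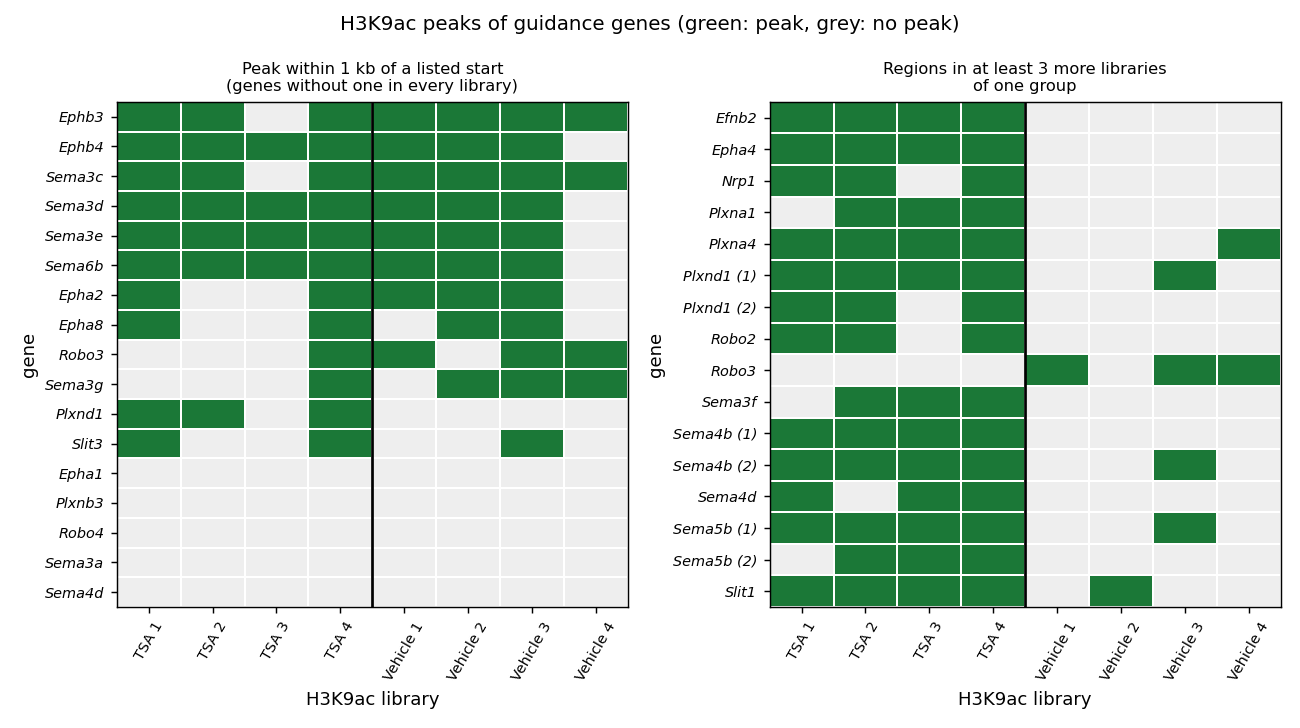
Presence (green) or absence (grey) of an H3K9ac peak in each of the 4 TSA and 4 Vehicle libraries (x axis), for the 17 genes without a start peak in every library (left) and the 16 regions in guidance genes held by at least 3 more libraries of one group (right). On the right, 15 regions are filled on the TSA side and 1, in Robo3, on the Vehicle side.

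Within the spans of the 60 genes and 1 kb beyond, the merged peaks of the 8 lists formed 693 of 104737 regions. Of these, 64 (9.24%) were in all 8 libraries, against 11.8% of all regions, and 388 (56.0%) were in a single library, against 57.3%. Occupancy in at least 3 more TSA than Vehicle libraries was found for 15 regions in 12 genes, 2.16% of the 693 where 1.7% of all regions met the rule. The opposite was found for 1 region, 0.144% where the background was 0.253%. Among the 15, 3 regions were in all 4 TSA libraries and no Vehicle library, which occurred for 0.198% of all regions (Fisher's exact p = 0.0286, unadjusted, the smallest that 4 against 4 can give). They lay in Epha4 at chr1:77496658-77497335, 17753 bp from the start, in Efnb2 at chr8:8620926-8621344, 39898 bp from the start, and in Sema4b at chr7:80215092-80215553, 16504 bp from the start. In Epha4 the region was present in TSA while the RNA fell, and in Efnb2 and Sema4b the RNA did not pass the test. The Epha4 promoter, chr1:77515039-77515338 on the minus strand with 17 CpG, had a peak in all 8 libraries and is shown to set beside the distant region.
Epha4: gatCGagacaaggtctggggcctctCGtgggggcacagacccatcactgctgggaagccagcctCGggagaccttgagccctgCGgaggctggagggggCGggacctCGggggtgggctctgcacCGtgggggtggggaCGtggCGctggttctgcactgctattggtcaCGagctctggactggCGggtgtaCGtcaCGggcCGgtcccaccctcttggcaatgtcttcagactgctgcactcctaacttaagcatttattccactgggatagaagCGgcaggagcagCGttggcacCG

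Regions in 4 TSA libraries and 1 Vehicle library lay in Plxna4 (chr6:32583174-32584658), Plxnd1 (chr6:115957249-115958140), Sema4b (chr7:80216450-80217029), Sema5b (chr16:35556062-35557022) and Slit1 (chr19:41737921-41738969). Those in 3 TSA libraries and no Vehicle library lay in Nrp1 (chr8:128361071-128361651, 1998 bp from the start), Plxna1 (chr6:89344840-89345183), Robo2 (chr16:74409571-74409962, 1863 bp from the start), Sema3f (chr9:107697869-107698360), Sema4d (chr13:51752663-51753098) and Sema5b (chr16:35588619-35589017), besides the one at the Plxnd1 start. The Robo3 region found in no TSA library and 3 Vehicle libraries was at chr9:37432616-37433007, 168 bp from the start. Taking from each list its 22668 strongest peaks, as many as the shortest list holds, gave 7 regions more often occupied in TSA. These were 3.06% of 229 guidance regions, where 1.34% of all regions met the rule. Of the 15 regions only that of Epha4 was among the 7. The Robo3 region was not called there, and the 1 region less often occupied in TSA was another, in Ephb3 (chr16:21204786-21205158, 1 TSA and 4 Vehicle libraries). Leaving out TSA 1, TSA 2, TSA 3 or TSA 4 gave 7, 4, 6 and 4 regions. A region in 4 and 1 libraries (5 of the 15) no longer meets the rule once any TSA library is left out, and one in 3 and 0 (7 of the 15) fails it without a library that holds it; TSA 4 held all 7 of these, and all 15 regions. Leaving out Vehicle 3 gave 25 regions, and leaving out Vehicle 4 gave 15. The list of Vehicle 4 is the shortest and that of TSA 4 the longest. Over all regions, lists of equal length gave 509 more often and 382 less often occupied in TSA, against 1776 and 265 with the full lists. Both counts changed with list length, and its part in single regions was not tested further.

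RNA and region occupancy can be set side by side. Of the 12 genes with a region more often occupied in TSA, 5 had risen RNA (Nrp1, Plxna1, Plxna4, Plxnd1 and Sema4d) and 1 had fallen RNA (Epha4), and of the 46 other tested guidance genes 7 rose and 2 fell. Over the 981 tested protein-coding genes with such a region 38.9% rose and 6.93% fell, against 15.1% and 19.5% of the 12150 without one. Genes with such a region were longer, with a median span of 41.9 kb, against 25.2 kb without, and the part of span was not tested. Sema5a rose most without one: its 451.5 kb held 2 regions, or 0.443 per 100 kb, where the median was 2.87 for the 27 guidance genes and 2.53 for the 2429 protein-coding genes of at least 100 kb. Epha6 was lower still, at 0.206 per 100 kb. Among guidance genes of at least 100 kb, Ephb2 had the highest density, with 88 regions, 46.6 per 100 kb, of which 57 were in a single library. Some shorter genes were denser, such as Sema3b at 138 per 100 kb. Slit1 followed with 40 regions, of which 31 were in a single library.

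The starts of the guidance genes were rich in CpG. Over 69 listed starts of 53 genes the 300-base windows held a median of 18 CpG, against 13 over 21263 starts of all genes. The latter include genes with too little RNA to test, here and in the motif shares below. The median was 23 for the 42 starts with a peak in all 8 libraries, 12.5 for the 18 with a peak in some, and 3 for the 9 with none, of which the Robo4 window above is an example. The letters GGGCGG, the core of the Sp1 motif, were found on either strand in 71.0% of the guidance windows and 46.2% of all windows, and TATAAA in 2.90% and 12.6%. GGGCGG itself contains a CpG, so these shares are not independent of the CpG counts. The proneural E-box CAGATG was in 7.25% of the guidance windows and 14.6% of all, CAGCTG in 15.9% and 15.6%, and AGGTGTGA, the T-box motif, in 1.45% and 1.15%. A match is a description of these letters, not of a bound site.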

How the data were processed

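RNA was measured in 4 TSA and 4 Vehicle libraries, and H3K9ac in 4 and 4 others. The authors deposited unnormalized read counts for each Ensembl gene, and the library kit named in the labels' protocols keeps no strand information. Reads of overlapping genes therefore cannot be told apart. In RefSeq, 30 of the 60 genes are overlapped by another annotated gene, among them 8 of the 15 called (Efna3, Epha4, Ephb2, Nrp1, Plxna1, Plxna2, Plxna4 and Sema4d). The overlapping gene is protein-coding for 4: Epha1 (Zyx), Epha5 (Gm42163), Plxna1 (Gm40415) and Sema3b (Lsmem2). The build was mm10, per the submitters' processing notes, and which programs aligned and counted the reads is not stated in those sources. Lines for unassigned reads summed to 0.

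Peaks were called by the authors for each library with MACS2 2.1.0.20140616 at a q-value limit of 0.1 on tags of 50 bp, each against the same input of 18937878 tags, per the file headers. The deposited peak columns are the pileup signal at the summit, the fold enrichment (a ratio to local background) and the −log10 of p and q. The −log10 q values, as deposited by the authors, were used to filter or rank peaks within a list, and libraries were compared by presence of a peak.

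Genes were kept by filterByExpr, scaled by TMM and tested with edgeR 4.0.16 (quasi-likelihood, robust, no covariate) over 15000 genes, with an adjusted p under 0.05 called. Log2 fold changes are TSA minus Vehicle. CPM values are counts on TMM-scaled totals, without correction for length, so levels of different genes were not compared. The 60 genes and all gene lists were chosen with earlier results of these data known. The 16 lists held 220 symbols, of which 1 was not in the files. Replicates differed beyond sampling noise (chi-square per degree of freedom from 3.12 to 36.0). Values per library were given for up to 5 genes with the smallest p in each family and for genes with a called region, and of each other list for up to 4 genes with the smallest p and those against the majority. Sema4g, Sema6c, Sema7a, Plxna3, Sema3a and Dcc were added after their values were seen.

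Peaks were merged over the 8 lists, and a region was called where at least 3 more libraries of either group held a peak. Alternatives were RLE factors, DESeq2 1.42.0, limma-voom (limma 3.58.1), no filter, the replicate block, lane, Xist status, each library left out, Vehicle 1 and 4 left out together, and removal of each library's trend over genomic span (limma). The test was checked on simulated counts. Promoter windows, of 300 bases, came from RefSeq.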

Additional observations from a re-analysis of the deposited data

Results flagged for a closer look

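Among 116 groups of 4 libraries (58 genes in TSA and in Vehicle), 6 held a library far from the other 3. Chance gives about 1 in 20, so 6 is near the number expected by chance, and the cases are listed as description only. In 4 of them the library was TSA 3, which was also the TSA library with the highest Nkx2-1 level. Plxnc1 had 124 CPM in TSA 3, against 85.2 to 86.7 CPM in the other TSA libraries, and without TSA 3 it fell. Slit2 had 88.5 CPM in TSA 3, against 58.8 to 61.0 CPM in the others. Sema7a had 59.2 CPM in TSA 3, against 83.0 to 87.0 CPM in the others, and Sema4f had 35.4 CPM, against 43.4 to 44.3 CPM. Efna4 had 22.1 CPM in TSA 1, the library with the fewest counts, against 14.02 to 15.01 CPM in the other TSA libraries. Plxnd1 had 110.3 CPM in Vehicle 3, against 82.2 to 83.1 CPM in the other Vehicle libraries. Whether anything but chance set these libraries apart was not tested.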

How the results depend on the processing

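The RNA count of 12 risen and 3 fallen guidance genes was within 1.5 times under RLE factors, DESeq2, limma-voom, no filter and lane. With Xist status as a covariate fewer guidance genes passed, as did fewer genes in all. That fit sets TSA 4 alone against the Vehicle libraries, so it cannot separate embryo sex from the loss of the other TSA libraries. With the span trend removed the count was 13 and 7, and the cause was not tested. Leaving out 1 library gave 9 to 16 risen and 1 to 4 fallen genes. DESeq2 called Efnb3 and Robo1 besides the 15, and no filter called Efnb3, Robo1, Sema4g, Sema6c and Slit2 but not Efna1. Lane as a covariate called Sema6c but not Efna1. The replicate block gave 18 and 4. Same-numbered libraries correlated by 0.0696 to 0.111, and 3 of 4 TSA libraries correlated best with their own number. These values do not settle whether the numbers pair the samples, and the main test took no pairs.

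The count of 15 regions more often occupied in TSA was 7 with lists of equal length, 9 when peaks had to cover 200 bp, 3 when only 4 against 0 was called, 14 at a q of 0.01 (12 of them among the 15) and 4 to 25 without 1 library. The 1 region less often occupied became 0 for 4 against 0, and 0 to 5 without 1 library. Starts with a peak in every library numbered 32 to 38 under the alternatives and 36 to 40 without 1 library.

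Among genes that did not pass, 18 had the opposite sign under some alternative. With Xist status as a covariate the log2 fold changes were −0.013 for Nrp2, −0.021 for Epha8, −0.31 for Sema3g, 0.014 for Sema7a, −0.049 for Slit3, 0.11 for Sema5b and −0.015 for Epha3. Without Vehicle 1 and 4 they were 0.061 for Sema4c, 0.011 for Efna4, −0.0059 for Efnb2, −0.022 for Robo4, 0.38 for Robo3, 0.14 for Sema5b, −0.051 for Epha3 and −0.052 for Robo2. With the span trend removed they were 0.062 for Sema4c, −0.080 for Sema6d, 0.13 for Efna4, −0.093 for Epha3, −0.14 for Robo2, −0.17 for Efna5 and −0.032 for Slit1. Leaving out 1 library gave −0.055 to 0.035 for Sema4c, −0.068 to 0.21 for Sema4a, −0.18 to 0.037 for Efna4, −0.22 to 0.19 for Epha8, −0.11 to 0.051 for Sema7a, −0.085 to 0.035 for Sema5b, −0.27 to 0.0046 for Epha6 and −0.072 to 0.15 for Efna5. Depth limits Epha1 and Plxnb3, and the smallest exact p of 4 against 4 libraries is 0.0286.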
